A study of Mesocricetus auratus with 6 samples.

Results

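Hedgehog signalling genes and the transcription factors linked to it in the pregnant uterus were read at implantation and interimplantation sites of the hamster. The set held every probe set annotated to one of 10 genes, namely IHH, PTCH1, SMO, GLI1, GLI2, GLI3, NR2F1, NR2F2, HAND2 and HAND1. This gave 12 of 22215 probe sets, which read 9 of the 10 genes: 3 for PTCH1, 2 for GLI2 and 1 for each of the other 7. NR2F2, which encodes COUP-TFII, was not analysed here, because the annotation used gave its symbol to no probe set, so the values below speak of hedgehog signalling, NR2F1 and the HAND factors only.

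The animals were pregnant Syrian golden hamsters (Mesocricetus auratus), and uterus was collected on day 5, the day of blastocyst implantation. No treatment was given, and the labels name neither the age of the animals nor any altered gene. One group was pieces of uterus that held an embryo (implantation sites, 3 arrays), and the other was pieces of uterus without an embryo (interimplantation sites, 3 arrays). The labels call the arrays of each group biological replicates, and the design text names 3 animals. No label ties an array to an animal, so the spread behind each p-value is that between arrays, part of which may be technical. The pieces were whole uterus, so fewer cells of a type and less RNA per cell cannot be told apart.

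In the receptive uterus, progesterone acting on the epithelium induces Indian hedgehog (IHH), a secreted ligand that signals to the stroma below. The ligand binds Patched 1 (PTCH1), which releases Smoothened (SMO), and SMO in turn controls the GLI transcription factors. GLI1 is an activator and, like PTCH1, a transcriptional target of the pathway, while GLI3 acts largely as a repressor in its absence. In mouse stroma, COUP-TFII acts downstream of IHH and supports decidualisation, and HAND2 is a progesterone-induced factor that restrains stromal FGF signalling to the epithelium. NR2F1 is the close relative of COUP-TFII, and HAND1 is the relative of HAND2 known chiefly from trophoblast and heart.

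RNA was hybridised to an Affymetrix array of human probes, and the deposited values are log2 RMA values, 1 per probe set and array. A probe set that matches the hamster transcript poorly can be dim, so a low value does not show that a transcript is missing, and a small difference at such a probe set does not show that it is constant. A high value does not by itself show that the named hamster transcript was read, and the match of the probes was not tested. Over all probe sets the first quartile of the mean value was 3.10 and the median 4.19. Of the member probe sets 6 (IHH, SMO, GLI1, GLI3, HAND2 and HAND1) lay at or above this median. The dimmer ones were all 3 of PTCH1, both of GLI2 and that of NR2F1, and 3 of them (NR2F1, 1 of PTCH1 and 1 of GLI2) lay under the first quartile. Array medians ran from 4.18 to 4.20 and array correlations from 0.985 to 0.995, with within-group and between-group ranges that overlapped. Among all probe sets 235 passed limma's test with Benjamini-Hochberg adjustment over 22215 probe sets (adjusted p under 0.05), 156 higher and 79 lower at implantation sites.

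None of the 12 member probe sets passed this test: 0 rose and 0 fell, against 1.06% of all probe sets called, and the smallest adjusted p among them was 0.367. Before adjustment, 2 of the 12 had a p under 0.05, beside 10.5% of all probe sets, a share that would give 1.26 of 12. HAND2 was the 1 higher (5.27% of all probe sets) and GLI1 the 1 lower (5.23%). The groups did not overlap at 3 of the 12, beside 16.0% of all probe sets, a share that would give 1.92 of 12. HAND2 was higher without overlap (7.72% of all probe sets) and GLI1 and SMO lower (8.30%). These counts lie about 1 probe set from the background. The 95% intervals of the 12 differences together spanned −0.40 to 0.35 (log2 implantation minus interimplantation site), so a fall beyond 1.32-fold or a rise beyond 1.27-fold lay outside every interval on the scale of these values. The smallest difference that passed anywhere on the array was 0.35.

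**Figure D1:**
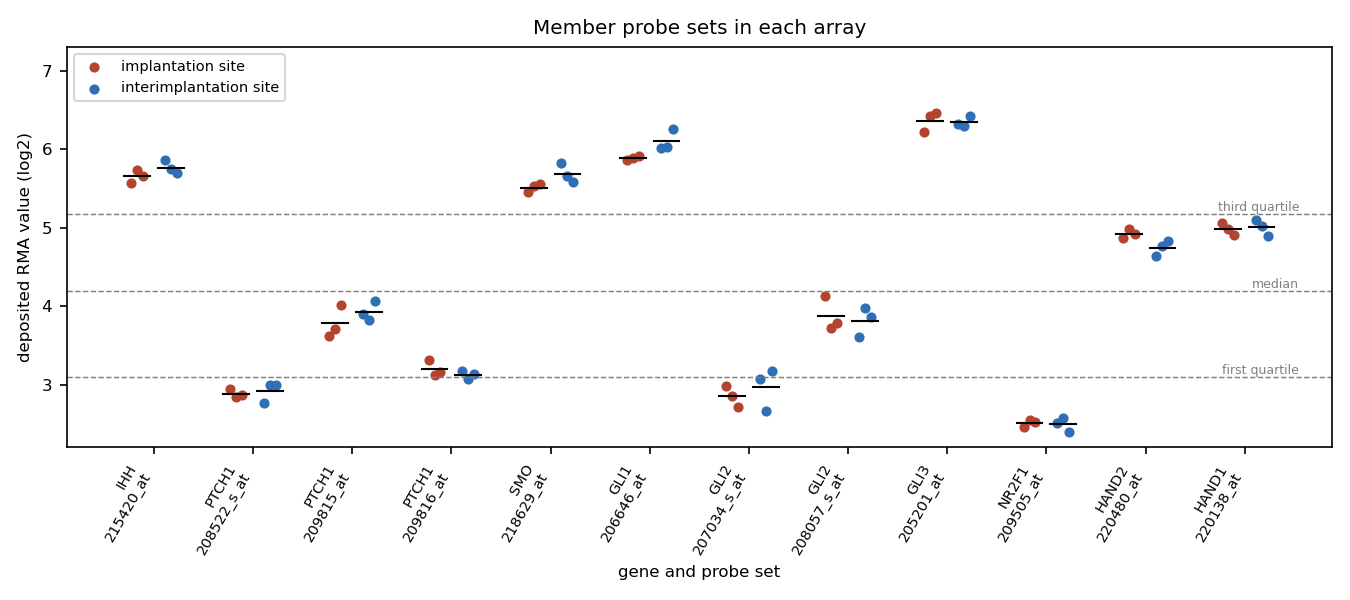
Log2 RMA value (y axis) of each member probe set (x axis) in each of 6 arrays, with 3 points per group and a black bar for the group mean; dashed lines mark the quartiles of the mean value over all probe sets. The groups separate without overlap at GLI1, SMO and HAND2 only, and by small steps (differences of −0.21, −0.18 and 0.18).

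The ligand gene IHH showed little difference between sites. Its probe set (215420_at) read 5.57, 5.74 and 5.66 at implantation sites 1, 2 and 3, and 5.86, 5.74 and 5.69 at interimplantation sites 1, 2 and 3. The lowest value was an implantation site and the highest an interimplantation site, but implantation site 2 lay above interimplantation site 3, so the groups overlapped. The means were 5.65 ± 0.08 and 5.76 ± 0.09 (SD, n = 3 arrays per group), a difference of −0.11 ± 0.08 (SE) with an adjusted p of 0.702 in limma's test and a 95% interval of −0.28 to 0.07. The summed level of 12 uterine epithelial markers, on the linear scale, ran from 303 to 337 at implantation sites and from 323 to 342 at interimplantation sites (exact permutation p = 0.6, two-sided). Markers within that list went both ways. The keratin genes KRT19 and KRT8 were at −0.39 and −0.24, lower at implantation sites without overlap (adjusted p = 0.145 and 0.277). CLDN3 was at −0.23, KRT18 at −0.13 and EPCAM at −0.07, while WNT7A was at 0.16. CDH1, ELF3, CLDN4, CLDN7, FOXA2 and KRT7 lay between −0.04 and 0.05. None of the 12 passed limma's test, and EPCAM, a defining epithelial marker, was dim (means of 2.76 and 2.84).

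The receptor PTCH1 gave no uniform direction over its 3 probe sets. The one with the highest signal (209815_at) read 3.62, 3.71 and 4.01 at implantation sites and 3.90, 3.82 and 4.07 at interimplantation sites. Each group had 1 array near 4.0, replicate 3 in each, and the groups overlapped (difference −0.15 ± 0.11 SE, adjusted p = 0.695 in limma's test). The other probe sets differed by −0.04 (208522_s_at) and 0.07 (209816_at), and their values lay between 2.77 and 3.31 in all arrays. PTCH1 is used as a readout of hedgehog activity in many tissues, and at these probe sets the 95% intervals together ran from −0.38 to 0.24.

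SMO, the membrane protein that passes the signal on, read lower in each implantation array than in any interimplantation array. The values at 218629_at were 5.45, 5.53 and 5.55 against 5.82, 5.66 and 5.58. Implantation site 3 and interimplantation site 3 lay 0.031 apart, so the separation was narrow, and interimplantation site 1 stood highest. The difference was −0.18 ± 0.08 (SE; means 5.51 ± 0.05 and 5.69 ± 0.12, SD, n = 3), or 1.13-fold lower, with an adjusted p of 0.486 in limma's test and an interval of −0.36 to 0.00. Without interimplantation site 1 it was −0.11 (adjusted p = 0.697), a 1.60 times smaller difference.

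GLI1 had the smallest p of the set. Its probe set (206646_at) read 5.86, 5.88 and 5.92 at implantation sites, a narrow range, and 6.01, 6.03 and 6.25 at interimplantation sites. Every implantation array was below every interimplantation array, and interimplantation site 3 stood apart from the other 2 of its group. The difference was −0.21 ± 0.08 (SE; means 5.89 ± 0.03 and 6.10 ± 0.13, SD, n = 3), or 1.16-fold lower, with an unadjusted p of 0.0256 and an adjusted p of 0.367 in limma's fit. Without interimplantation site 3 it was −0.14 (adjusted p = 0.708), a 1.57 times smaller difference.

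The other GLI factors showed no common direction. GLI3 (205201_at), the repressor, read 6.22, 6.42 and 6.45 at implantation sites and 6.32, 6.30 and 6.42 at interimplantation sites. Its groups overlapped almost fully, with a difference of 0.02 ± 0.08 (SE) and an interval of −0.17 to 0.20. GLI2, the main activator at the start of a response, differed by 0.06 at 208057_s_at (3.88 ± 0.22 against 3.81 ± 0.19, SD, n = 3) and by −0.12 at 207034_s_at (2.85 ± 0.14 against 2.97 ± 0.27). These were the widest spreads of the set, with pooled within-group SDs of 0.207 and 0.216, beside a median of 0.102 over all probe sets.

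HAND2 was the one member whose arrays were all higher at implantation sites. Its probe set (220480_at) read 4.87, 4.98 and 4.91 at implantation sites and 4.64, 4.76 and 4.82 at interimplantation sites. The closest pair across groups, implantation site 1 and interimplantation site 3, differed by 0.046. The difference was 0.18 ± 0.08 (SE; means 4.92 ± 0.05 and 4.74 ± 0.09, SD, n = 3), or 1.13-fold higher, with an unadjusted p of 0.0411 and an adjusted p of 0.446 in limma's fit. Leaving out single arrays gave differences of 0.13 to 0.22. HAND2 is a stromal factor, and the summed level of 12 stromal markers ran from 3301 to 3490 at implantation sites and from 2792 to 3305 at interimplantation sites (exact permutation p = 0.2, two-sided). The difference of the group means, 380, shrank to 42.7 after repeated quantile normalization. COL1A1 had the highest signal of the 12 (group means 10.4 and 9.85), so it weighed most in this linear sum. The sum without COL1A1 was not taken. Stromal markers went both ways. COL3A1 was at 0.26, VIM at −0.22 and DCN at −0.25. COL1A2, COL6A3, LUM, MMP2, PDGFRB and THY1 lay between −0.04 and 0.06. COL1A1, a collagen gene, rose by 0.56 (adjusted p = 0.00955 in limma's test) and FBLN1, a matrix gene, by 0.92 (adjusted p = 0.00115), while PDGFRA, a receptor of stromal cells, fell by 0.66 (adjusted p = 0.00655). These are values at the brightest probe set of each gene; averaged over its probe sets none of the 3 passed (0.28, 0.22 and −0.26). COL1A1 also missed the threshold after repeated quantile normalization (0.28, adjusted p = 0.137) and without implantation site 1 (0.0513). The part of tissue makeup in the HAND2 difference was not tested.

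HAND1 (220138_at) read 5.06, 4.99 and 4.91 at implantation sites and 5.10, 5.01 and 4.89 at interimplantation sites. The ranges nearly coincided (difference −0.02 ± 0.08 SE, interval −0.20 to 0.16). Trophoblast is a known site of HAND1 expression, and the pieces with an embryo could carry some of it. The sum over 9 measured of 12 trophoblast markers, HAND1 among them, ran from 301 to 314 at implantation sites and from 296 to 318 at interimplantation sites (exact permutation p = 0.8, two-sided). None of the 9 passed limma's test. PLAC1 (means of 6.08 and 6.10) and CDX2 (5.41 and 5.47) lay above the array median in both groups, pieces without an embryo included. The sum is therefore a limited measure of trophoblast here. NR2F1 (209505_at) lay between 2.39 and 2.57 in all 6 arrays, with a difference of 0.02 ± 0.08 (SE), and its mean was at percentile 11.3 of all probe sets.

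**Figure D2:**
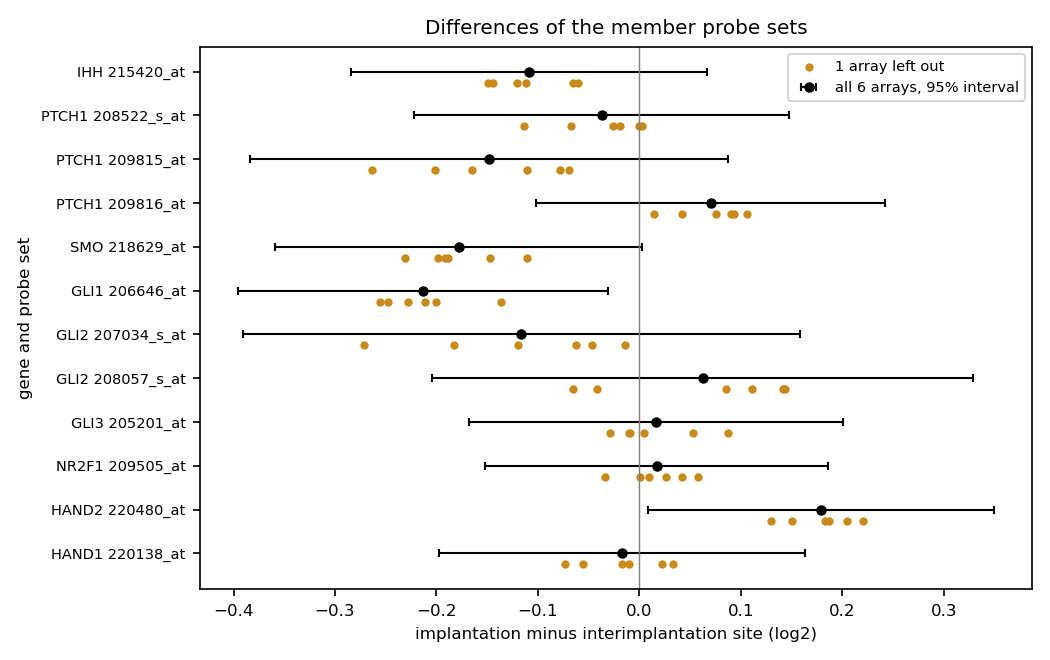
Difference in log2 RMA value, implantation minus interimplantation site (x axis), for each member probe set (y axis): black points with bars show all 6 arrays with limma's 95% interval, and ochre points show the difference with each array left out in turn. Intervals of GLI1 (−0.40 to −0.03) and HAND2 (0.01 to 0.35) leave out 0 before adjustment. The signs of IHH, SMO, GLI1 and HAND2 held whichever array was left out. So did those of PTCH1 at 209815_at (negative) and 209816_at (positive) and of GLI2 at 207034_s_at (negative). Those of GLI3, NR2F1, HAND1, 1 probe set of PTCH1 and 1 of GLI2 did not.

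The pattern of HAND2 over the 6 arrays was set beside that of every other probe set at or above the median with a single gene name. The most alike were GOT1 (aspartate aminotransferase, Pearson r = 0.990), SYNGR2 (a vesicle protein, r = 0.990) and DMD (dystrophin, r = 0.987). Of the 9680 probe sets compared 136 had r of at least 0.9. The values rest on n = 6 arrays that share their group structure and are a description only.

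Genes around the members were read from 9 lists of 120 genes in all, of which 95 had a probe set. Of their 219 probe sets 1 rose and 2 fell, beside 0.702% higher and 0.356% lower among all probe sets. The median difference over the lists was −0.04, beside −0.01 over all probe sets. All 3 calls were in the list of progesterone and oestrogen genes, and the other 8 lists had 0 (at an unadjusted p under 0.05 in limma's fit they had 9 higher and 13 lower probe sets of 191, where the shares of all probe sets, 5.27% and 5.23%, would give 10.1 and 9.98).

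Upstream of the receptor, the ligands and their processing factors had 4 probe sets and 0 calls, with a median of −0.08. SCUBE2, which helps release lipid-modified hedgehog from cells, read lower without overlap (−0.15 ± 0.07 SE, adjusted p = 0.508 in limma's test), and SHH, the sonic ligand, differed by −0.06. Among receptors and coreceptors (8 probe sets, median −0.01), the coreceptor GAS1 was at 0.15 and 0.12 at its 2 probe sets, and LRP2, an endocytic receptor that binds hedgehog, at −0.14. None of these passed.

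Signal transduction genes (34 probe sets, median 0.00) had 0 calls, with 1 higher and 3 lower before adjustment (p under 0.05 in limma's fit), where the shares of all probe sets would give 1.79 and 1.78. IFT88, a transport protein of the primary cilium where SMO acts, was at 0.28 ± 0.08 (SE, adjusted p = 0.133 in limma's test). CSNK1A1, a kinase that marks GLI proteins for processing, was at −0.32 ± 0.09 (SE, adjusted p = 0.134) at its lowest-p probe set and negative at 6 of 7. Of 24 probe sets of hedgehog target genes 7 were positive and 17 negative, with a median of −0.04. FOXL1, a forkhead factor of mesenchyme, was at 0.33 (adjusted p = 0.236), CCND2 (cyclin D2) at 0.23 and MYCN at −0.18, but other probe sets of CCND2 and MYCN had the opposite sign, and one of MYCN was at 0.19 with an unadjusted p of 0.0361.

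Among genes of the COUP-TF family, its partners and its targets (29 probe sets, median 0.01), NR2C2, an orphan receptor, was at 0.34. RXRA, a shared partner, was at −0.24 (adjusted p = 0.428 for NR2C2 and 0.460 for RXRA in limma's test), with 0.06 at its other probe set. NR2C1 was at 0.15, with the opposite sign at its other 2 probe sets. HAND factors bind DNA with E-proteins, and in that list (34 probe sets, median −0.04) the E-protein gene TCF3 was at 0.29 ± 0.08 (SE, adjusted p = 0.124) at 1 of 13 probe sets, of which 6 were positive and 7 negative. TCF4, another E-protein gene, was at −0.36 ± 0.11 (SE, adjusted p = 0.240) and negative at 6 of 7 probe sets. TWIST1, a mesenchymal factor of the same class, was at −0.29.

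FGF signalling is the pathway that HAND2 is known to restrain. Of 32 probe sets of ligands and receptors none passed (median −0.02); before adjustment 3 had a p under 0.05 in limma's fit, 1 higher and 2 lower, all of FGFR2. That receptor gene of epithelia went both ways, at −0.31 and −0.32 at a pair of its 10 probe sets and at 0.17 at another. FGFR1 was split as well, with 3 probe sets positive and 3 negative, at −0.16 (222164_at) and 0.21 (210973_s_at) at the pair with the smallest p. FGF18, a stromal ligand in the mouse, was at −0.11 at its lowest-p probe set (adjusted p = 0.645 in limma's test). Its 5 probe sets ran from −0.11 to 0.05, with 1 positive and 4 negative. In the list of FGF and ERK response genes none of 26 probe sets passed either and the median was −0.07. Of the 26, 18 were negative, beside 11912 of all 22215 probe sets. Its groups did not overlap, with implantation lower, at 8 of 26 probe sets from 6 genes (30.8%), beside 8.30% of all probe sets, and with implantation higher at 1 (3.85%, beside 7.72%). Lower without overlap was the highest share among the 9 lists, of which the other 8 ran from 3.45% to 25.0%, with 13.2% over all lists together. The 25.0% was 1 of 4 probe sets. Among the lower probe sets of the response list, 208891_at of DUSP6 and 221911_at of ETV1 lay under the first quartile of brightness. The lists were chosen with earlier results of these data known, so this rank is a description only. The actin control and the smooth muscle sum, given below, split the same arrays, and their part in these counts was not tested.

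DUSP6, a phosphatase induced by ERK, came nearest to the threshold. Its probe set 208891_at read 2.85, 2.89 and 2.81 at implantation sites and 3.38, 3.08 and 3.20 at interimplantation sites, without overlap (difference −0.37 ± 0.09 SE, adjusted p = 0.0866 in limma's test). The probe set was dim, under the first quartile, and the other 2 of DUSP6 were at −0.07 and −0.06. ETV5, an ETS factor of the same response, was at −0.31 and negative at all 3 probe sets. EGR1, an immediate early factor, was at −0.30 at one probe set and at 0.02 at the other.

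The 3 calls around the members were SOX17, NCOA2 and FKBP4. SOX17, an epithelial and vascular factor that acts upstream of IHH in the mouse uterus, read 5.00, 5.38 and 4.80 at implantation sites and 5.90, 5.80 and 5.82 at interimplantation sites. It fell by 0.78 ± 0.12 (SE, adjusted p = 0.0103 in limma's test), beside an IHH difference of −0.11, and missed the threshold without implantation site 1 (adjusted p = 0.0639). NCOA2, a steroid receptor coactivator, fell from 4.42 ± 0.37 to 3.58 ± 0.21 (SD, n = 3) at 212867_at (adjusted p = 0.0344), while its other 3 probe sets lay between −0.11 and 0.11. It missed the threshold without implantation site 1 (0.157), implantation site 3 (0.126) or interimplantation site 3 (0.0617). The fit without suffixed probe sets, those with a letter code before _at such as _s_at or _x_at, also left NCOA2 short of it (0.0542).

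FKBP4, a cochaperone of the progesterone receptor, rose from 5.56 ± 0.11 to 5.94 ± 0.03 (SD, n = 3; adjusted p = 0.0481 in limma's test) and was at 0.08 at its other probe set. Its call was lost without any 1 of 5 arrays, all except interimplantation site 2, at adjusted p-values of 0.119 to 0.195, in the fit blocked on replicate number (0.0669) and with arrays centred on their medians (0.0505). The receptor gene PGR, read at a single probe set, was dim at 3.22 and 3.34 and differed by −0.12 (adjusted p = 0.763).

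**Figure D3:**
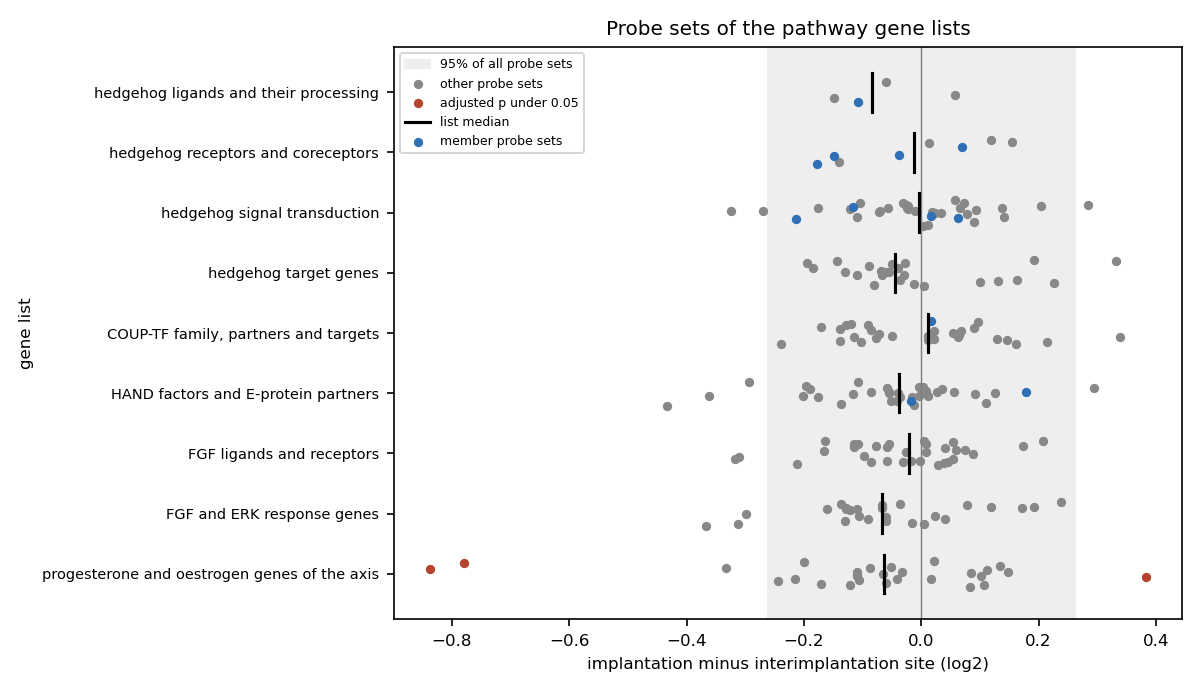
Difference in log2 RMA value (x axis) of every probe set in 9 gene lists (y axis), with members in blue, probe sets past an adjusted p of 0.05 in red and a black bar at each list's median; the grey band holds 95% of all probe sets (within 0.26 of 0). All 12 members lie in the band, and the 3 calls are in the list of progesterone and oestrogen genes.

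Marker sums described the pieces of tissue behind these values. Of 8 uterine identity markers 5 were measured. WT1 (group means of 7.24 and 6.50 at the brightest probe set), ESR1 (5.47 and 5.33) and HOXD10 (5.94 and 6.20) lay above the array median, and EMX2 (3.51 and 3.47) and PGR below it. Their sum ran from 258 to 318 at implantation sites and from 212 to 247 at interimplantation sites, without overlap (exact permutation p = 0.1, two-sided, the smallest that 3 against 3 arrays allow). WT1, a transcription factor of the decidualising stroma, carried this split (0.74, adjusted p = 0.0191 in limma's test, lost without interimplantation site 1 at 0.0511, without interimplantation site 3 at 0.0841 and with probe sets averaged by gene at 0.113). Without it, a setting added after seeing the data, the sum of the other 4 turned round, at 124 to 128 and 128 to 148. ESR1, at 0.13 where the sum read it, went both ways over its probe sets, with −0.24 at 205225_at and 0.15 at 211234_x_at. The sum of 9 smooth muscle markers ran from 421 to 427 at implantation sites and from 460 to 555 at interimplantation sites, also without overlap (exact permutation p = 0.1). Its members went both ways. ACTG2 at −0.80 and TAGLN at −0.56 passed limma's test as lower (adjusted p = 0.0488 and 0.0369). The ACTG2 call was lost in several alternatives, such as averaging probe sets by gene (0.0697) or leaving out implantation site 1 (0.127). MYLK was at −0.53, CNN1 at −0.23, ACTA2 at 0.15 (higher without overlap) and LMOD1 at 0.10. MYH11, DES and SMTN lay between −0.02 and 0.02. Without ACTG2, also a setting added after seeing the data, the ranges of the muscle sum overlapped (341 to 369 and 354 to 390). Endothelial sums (268 to 285 and 276 to 295) and leukocyte sums (280 to 289 and 273 to 283) overlapped. Leukocyte markers went both ways. SPI1 was at −0.49 (adjusted p = 0.0440 in limma's test) and NKG7 at −0.09, both lower without overlap. CD53 (0.17), CD3E (0.07) and LYZ (0.04) were higher without overlap. The 3′ minus 5′ difference of the actin control probe sets, commonly used as a measure of RNA quality, was −2.08 ± 0.22 and −1.70 ± 0.15 (log2, SD, n = 3; exact permutation p = 0.1). That of GAPDH was −0.20 ± 0.16 and 0.13 ± 0.17 (exact permutation p = 0.2). These controls are human probes, and the actin value was negative in every array. Their match to hamster RNA may therefore set part of it, so it is a limited measure of quality here. The arrays split by group in the actin measure, in WT1 and in part of the smooth muscle markers as they did in GLI1, SMO and HAND2, and the part of these in those values was not tested.

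**Figure D4:**
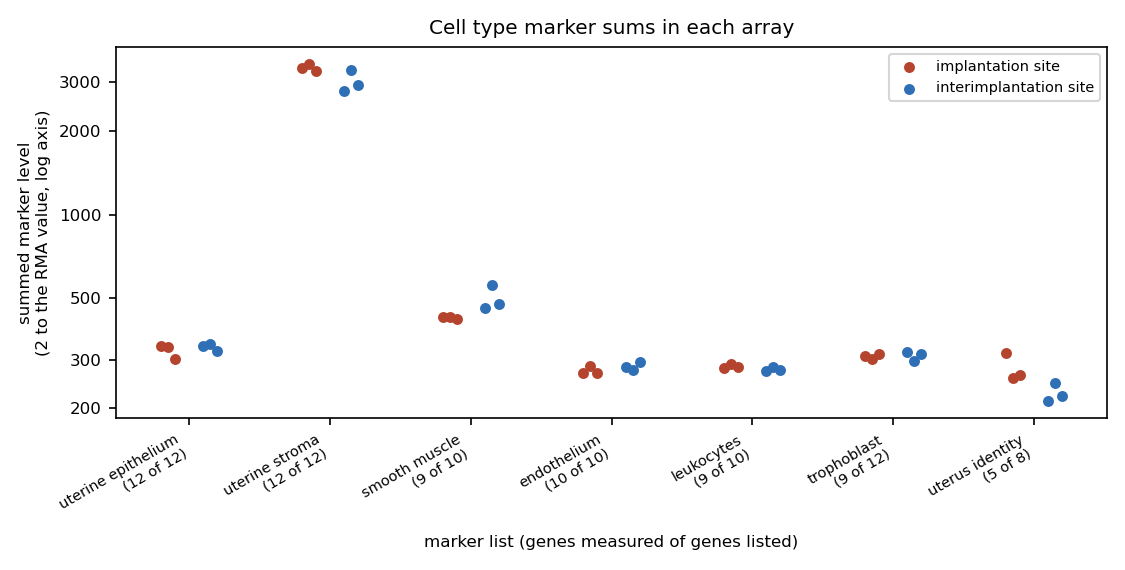
Summed linear level of the markers of each cell type (y axis, log scale) in each array, each gene read at its brightest probe set; the x axis names the list with the number of genes measured of those listed. Smooth muscle sums (421 to 427 against 460 to 555) and uterus identity sums (258 to 318 against 212 to 247) separate the groups, the latter through WT1, while epithelial and trophoblast sums overlap.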

How the data were processed

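The data were 6 arrays of hamster uterus, 3 per group as the labels give them. The deposited table holds RMA values on a log2 scale, produced in Partek 6.6 according to the submitters' processing notes. Neither the RMA settings nor the log base is given in the sources used here; values ran from 1.65 to 12.1 and were read as log2. RMA is built to bring arrays to one distribution, so a change of total RNA is not visible. Quantile normalization repeated without the controls still moved some bright values, with COL1A1 going from 0.56 to 0.28. The values used therefore did not share one distribution exactly, and the cause was not tested.

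Of 22283 probe sets 68 controls were left out. The platform annotation paired 19065 with 1 gene, 1043 with several and 2107 with none. Members and gene lists were chosen with earlier results of these data known. Named list genes were those past the threshold in their list, otherwise the 3 with the smallest p.

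All 22215 probe sets were fitted with limma 3.58.1 (R 4.3.3; lmFit, then eBayes; 2 groups, two-sided), adjusted by Benjamini-Hochberg at a threshold of 0.05; intervals are limma's, at 95%. The script was tested on simulated data. Marker sums and RNA controls used exact permutation over 20 assignments of arrays. The number of arrays limits the precision. Alternatives were 12 other settings and 6 fits without 1 array. Scan dates were not used here, and batches were not tested.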

Additional observations from a re-analysis of the deposited data

How the results depend on the processing

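No member probe set passed under any of the 18 alternatives that kept it; the lowest adjusted p was 0.299 (GLI1). IHH, SMO, GLI1 and HAND2 kept their direction in all 18. PTCH1 at 209815_at (17 alternatives) and 209816_at (15) and GLI2 at 207034_s_at (13) kept theirs in every alternative that held them. GLI2 at 208057_s_at turned from 0.06 to −0.0269 when the probe sets of each gene were averaged and to −0.0273 with array weights. When single arrays were left out, differences ran from −0.0651 to 0.143 at that probe set, from −0.0289 to 0.0876 for GLI3, from −0.0732 to 0.0330 for HAND1, from −0.0334 to 0.0582 for NR2F1, from −0.1135 to 0.0024 for PTCH1 at 208522_s_at and from −0.176 to 0.0170 for SHH. After averaging, CCND2 was at −0.0090 and NR2C1 at −0.0055, against positive main values. Filters on brightness or on suffixed probe sets removed some PTCH1, GLI2 and NR2F1 probe sets, which then have no value. The causes were not tested.

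Of the pathway list calls, 1 higher and 2 lower, there were 0 higher and 1 lower with the brightest probe set per gene, after averaging probe sets by gene and without suffixed probe sets. With arrays centred on their medians, and with a replicate block, there were 0 higher and 2 lower, and the stricter filter on brightness left 1 lower. Without single arrays there were 0 to 1 higher and 0 to 2 lower. Over all probe sets the counts of 156 higher and 79 lower became 93 and 55 with the brightest probe set per gene, 73 and 26 after averaging, 36 and 20 without suffixed probe sets, and 185 and 133 with array weights. Leaving out single arrays gave 83 to 140 higher and 33 to 90 lower. Fewer features were tested in the first 3 of these. The difference between groups in the stromal marker sum moved from 380 to 42.7 after repeated quantile normalization.

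Arrays of the same replicate number did not deviate together (correlations of deviations from the group means of 0.0541, −0.0025 and 0.0704), so the numbers were not read as pairs. With the replicate block 159 probe sets were higher and 93 lower, and 0 members passed.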
